A study of Oryza sativa with 35 samples.

Results

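The flower of rice before anthesis was compared with the panicle branch that carries it, and a large part of the measured genes differed between these neighbouring organs. Most genes of floral organ identity, expansins and beta tubulins that were tested were higher in the flower, with single members of the actin, calcium signalling and sugar transport families among the largest differences. Most genes tested of chlorophyll synthesis and photosystems were lower in the flower, as were single auxin and cytokinin genes. Of 16 genes of ammonium and nitrate transport and assimilation 7 were lower and 2 higher. Over all probe sets tested 15.9% were lower and 12.7% higher. The comparison used 6 of the 35 arrays of the study, chosen by their titles: 3 arrays of flower and 3 of panicle branch. All plants were Oryza sativa cultivar Nipponbare, raised on soil in a greenhouse with added light and sampled at heading, and no other genotype or treatment was used in these groups. The other arrays hold nodes I and II, the upper and lower ends of internode I, parts of the flag leaf and 3 arrays of groups without a replicate. RNA was read on the Affymetrix Rice Genome Array, on which a probe set, a group of short oligonucleotides, reads a transcript. The labels call the 3 repeats of each organ biological replicates without naming separate plants as their source. The p-values cover only the spread among repeat arrays, which may be technical. That spread was estimated over all 32 replicated arrays of 11 organ groups, not over the flower and branch arrays alone. The number of arrays limits the precision.

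A rice panicle consists of an axis and branches that bear spikelets, each with a flower of lemma, palea, lodicules, stamens and a pistil. Organ identity in the flower is set by combinations of MADS-domain transcription factors, while related factors act earlier in the branch and spikelet meristems. Shortly before anthesis the anthers hold nearly mature pollen, whose tube growth relies on actin, calcium signals, expansins and imported sugars, and the branch is a green stalk with vascular bundles that supply the flowers.

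Values are log2 signal, and differences are flower minus panicle branch in log2 units with limma's standard error. A probe set was called at a Benjamini-Hochberg adjusted p under 0.05 with a difference of at least 2-fold, and verbs and adjectives of change are kept for those calls. The array has 57194 probe sets for rice, and 38591 passed the filter on dim signals: 4920 (12.7%) were higher in the flower and 6149 (15.9%) were lower, 28.7% in either direction. Counts of rises and falls within gene lists are read against this background of 12.7% and 15.9%. With the hybridization controls set equal between arrays, 5066 were higher and 4585 lower, so which direction held more calls depended on the scaling. The sizes had a median of 2.51 among those called higher and -1.73 among those called lower. At 8-fold or more, 2006 probe sets were higher and 780 lower, and at 32-fold or more 929 were higher and 137 lower. In 20702 of the probe sets tested the 3 flower and the 3 branch arrays did not overlap. The median difference of all probe sets tested was -0.18, and other scalings gave -0.28 (array medians set equal), -0.07 (deposited scale) and -0.03 (hybridization controls set equal). Small differences are read against this shift. Replicate arrays correlated across probe sets at 0.945 to 0.947 in the flower and at 0.921 to 0.930 in the branch, and arrays of different organs at 0.743 to 0.772. Both organs are bulk tissue, so fewer cells of a type and less RNA per cell cannot be told apart.

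**Figure D1:**
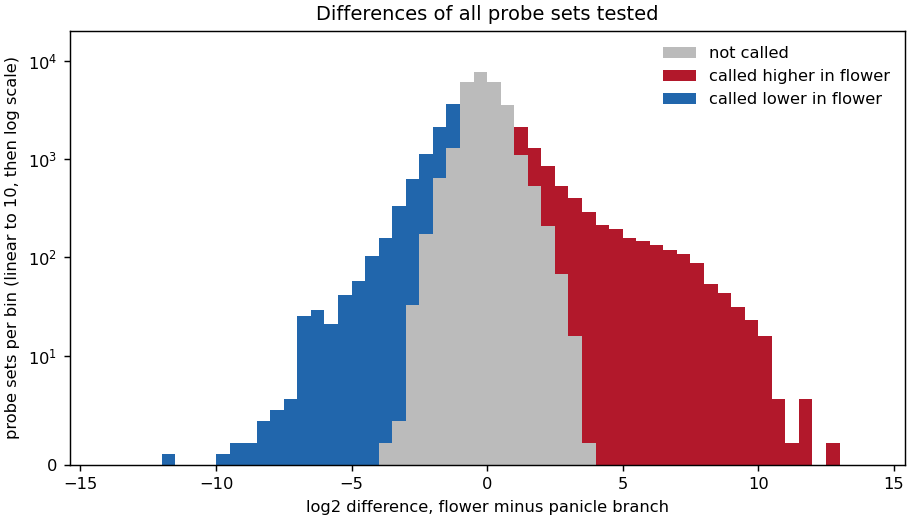
Number of probe sets per bin of log2 difference, flower minus panicle branch, for the 38591 probe sets tested. Red marks the 4920 called higher in the flower, blue the 6149 called lower and grey those not called; the vertical axis is linear to 10 and logarithmic above, and the red tail reaches further (12.85) than the blue one (-11.85).

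The organ labels were set against marker genes. All 11 floral organ markers measured were higher in the flower, and the log2 of their summed signal was 16.41 to 16.62 on the flower arrays and 11.79 to 13.11 on the branch arrays. Panicle branch replicate 3 had the highest reading of the 3 branch arrays for 9 of these 11 genes. Without it all 11 were still called higher, and 4785 probe sets were higher and 6015 lower; the source of these readings was not tested. The pollen allergen class of beta expansins was measured by EXPB9 and EXPB10, the 2 of 8 pollen markers that could be matched, and both were higher in the flower, with a log2 summed signal of 16.01 to 16.17 on the flower arrays and 10.19 to 10.50 on the branch arrays. Of 14 markers of tapetum and anther development 8 were matched and 4 tested, and 0 were called. TDR, a regulator of tapetum breakdown, read 5.62 in the flower and 3.58 in the branch on average, too dim to be tested. For the branch, 4 of 7 inflorescence markers were matched, 3 were tested and 1, MADS34, was lower in the flower. MADS34 was not particular to the branch (mean 11.41), since the top of internode I reached 11.58. FZP, a gene of spikelet meristems, was dim in both organs (1.71 in the flower and 1.60 in the branch). Green tissue markers were bright in both organs, with a log2 summed signal of 16.67 to 16.78 in the flower and 17.45 to 17.54 in the branch, and 3 of 6 were lower in the flower. Of 13 fibre and xylem markers 9 were tested, 5 higher and 2 lower in the flower. One of the falls, LAC3 (-2.30, adjusted p = 0.0469), overlapped between the organs and lost its call without flower replicate 2 or 3 or branch replicate 1 or 3 (adjusted p = 0.0529 to 0.227) and with the 6 arrays alone (adjusted p = 0.117). In these markers the log2 summed signals overlapped, at 12.87 to 13.29 in the flower and 12.93 to 13.46 in the branch. Of 5 phloem markers 3 were higher and 1 lower, and of 4 meristem markers 1, OSH43, was higher, but not called without any 1 array other than branch replicate 3 (adjusted p = 0.0649 to 0.107); branch replicate 3 again read highest of the branch arrays for 4 of 5 and 4 of 4 of them.

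Named genes were ranked where their mean in the higher organ reached 8.88, the 75th percentile of all values. The 12 largest rises among them were 8.61 or more on the log2 scale. Chia1d, a chitinase gene also listed as Cht7, read 15.40, 15.28 and 15.30 on the flower arrays and 5.55, 6.52 and 2.90 on the branch arrays. The difference was 10.34 ± 0.97 (adjusted p = 1.37e-08), and 9.57 on log2(signal + 16), a scale that damps low signals. ADF6, an actin depolymerizing factor, read 13.04, 12.67 and 13.07 in the flower against 2.75, 3.22 and 1.98 in the branch, a difference of 10.28 ± 0.92 (adjusted p = 7.56e-09; 8.43 on log2(signal + 16)). EXPB10 stood at 14.95, 14.59 and 15.06 in the flower and 4.91, 5.39 and 4.55 in the branch (9.92 ± 1.15, adjusted p = 3.2e-07; 9.31 on log2(signal + 16)). In each of these genes the organs were far apart, the branch arrays lay around or below the median of all values (5.83), and the flower was the highest of the 11 replicated organ groups. The 9 others were the monosaccharide transporter MST5 (9.77), the alpha expansin EXP26 (9.61), the actin-bundling villin VLN4 (9.25), the calcium pump ACA1 (9.14), YSL4 of a family of metal chelate transporters (9.11), the actin depolymerizing factors ADF9 (8.98) and ADF1 (8.61), the calmodulin-like CML28 (8.81) and the potassium transporter HAK26 (8.73). Flower readings were unequal for YSL4 (11.06, 9.08 and 12.50) and HAK26 (9.36, 7.78 and 10.27), with flower replicate 2 the lowest and every flower array above every branch array.

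The 12 largest falls of named genes, ranked with the same limit on the branch mean, ended at -4.94 on the log2 scale. MYBAS1, a MYB transcription factor, averaged 1.85 ± 0.56 on the flower arrays (SD, n = 3) and read 10.10, 10.03 and 11.12 on the branch arrays. It fell by 8.57 (SE 0.42, adjusted p = 5.81e-13; -6.13 on log2(signal + 16)), and its mean in the 9 other organ groups lay between 9.62 and 12.80, all above the flower mean. ALDP, a plastid fructose-bisphosphate aldolase of the Calvin cycle, read 5.85, 5.95 and 5.28 in the flower and 13.20, 14.13 and 13.48 in the branch (-7.91 ± 0.91, adjusted p = 2.74e-07; -7.52 on log2(signal + 16)). PIN4, of the PIN family of auxin efflux carriers, stood at 3.51, 4.77 and 5.80 in the flower against 11.73, 11.23 and 12.19 in the branch (-7.03 ± 0.52, adjusted p = 3.87e-10; -6.27 on log2(signal + 16)). BURP2, of a family of proteins with a BURP domain, differed from the rest in that the branch alone was high. It read 6.61, 7.06 and 7.57 in the flower and 13.49, 13.61 and 14.19 in the branch (-6.68 ± 1.43, adjusted p = 0.000536), while the 9 other organ groups had means of 2.44 to 6.47. The 8 others were the aquaporin PIP2-7 (-6.98), YSL13 (-6.24), the sodium transporter HKT1;5 (-5.66), the ubiquitin ligase gene XBOS31 (-5.40), the cytokinin oxidase CKX4 (-5.31), the potassium transporter HAK4 (-5.16), the laccase LAC7 (-5.13) and the sugar transporter SWEET1B (-4.94).

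**Figure D2:**
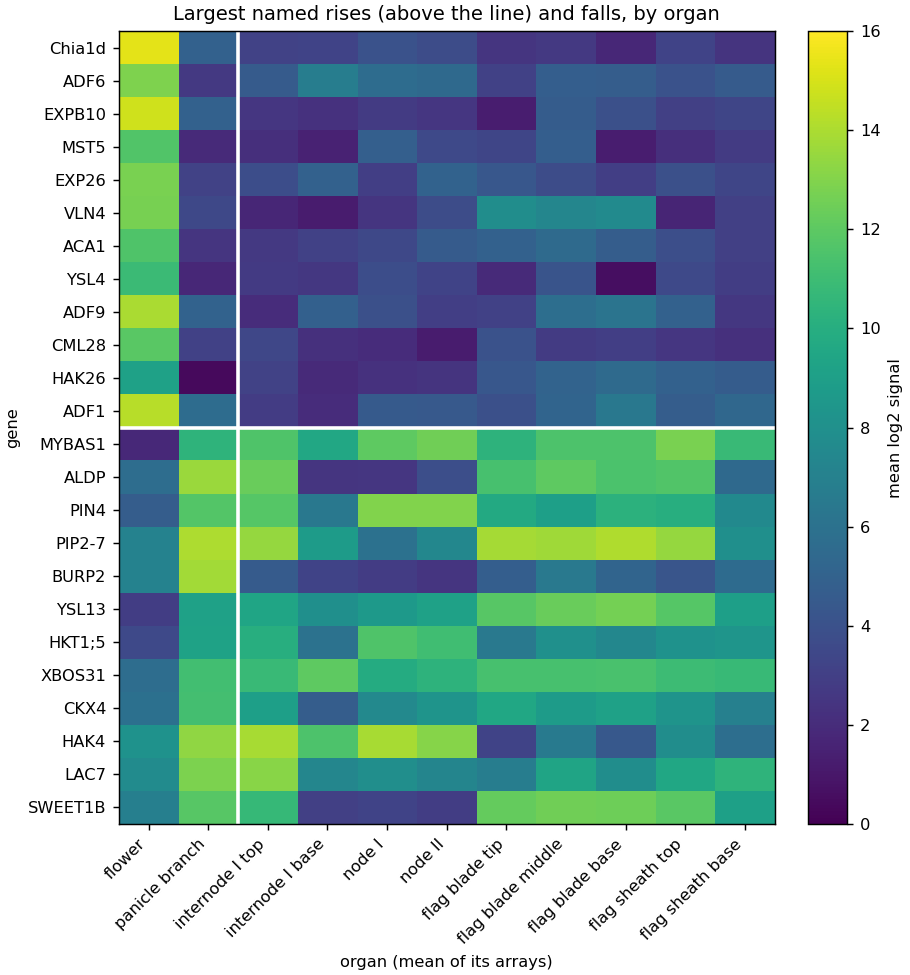
Mean log2 signal (colour) of named genes in the flower, the panicle branch and the 9 other replicated organ groups. Above the white line are the 12 largest named rises and below it the 12 largest named falls. Each had a mean of at least 8.88 in the higher organ. The upper genes are bright in the flower column; most of the lower genes are bright in several organs and dim in the flower, and BURP2 is bright in the branch alone.

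Over all probe sets tested, 4744 (12.3%) had their highest mean of the 11 groups in the flower and 2840 (7.36%) in the panicle branch. Of the 4920 probe sets called higher in the flower, 2927 (59.5%) had their highest mean of all 11 groups in the flower. Of the 6149 called lower, 1166 (19.0%) had their highest mean in the panicle branch. A call already places the named organ above the other, which raises the shares among called probe sets by construction. The shares over all probe sets tested carry no such selection and are not a baseline for them. Among the rises, 2236 had a branch mean below the median of all values, and among the falls 1742 had a flower mean below it. For these the size of the difference can depend on the treatment of low signals.

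Floral organ identity genes of classes B, C and D were higher in the flower. The 3 class B genes, which specify lodicules and stamens, all rose, with MADS4 at 4.52 ± 0.57, MADS2 at 3.88 ± 0.76 and MADS16 at 2.85 ± 0.32. MADS16 was also bright in the branch, at 13.90, 14.13 and 14.10 on the flower arrays and 11.30, 10.52 and 11.76 on the branch arrays. The 4 genes of classes C and D, which act in stamens, carpels and ovules, all rose. MADS58 read 12.08, 12.74 and 12.12 in the flower and 5.37, 2.84 and 5.67 in the branch (7.68 ± 0.72, adjusted p = 1.34e-08; 6.84 on log2(signal + 16)). MADS3 differed by 5.90 ± 0.71 and the ovule gene MADS13 by 5.25 ± 1.01. MADS21 differed by 4.36 ± 1.31 (adjusted p = 0.00924), and by 3.14 (adjusted p = 0.0755) without panicle branch replicate 3, which ends its call. Some probe sets of the array carry identifiers ending in _x_at, _s_at or _a_at, which can mark probes shared between transcripts or genes. Without all such probe sets 29341 were left to test. A list member read by a removed probe set counted as not called, which made list counts smaller. Then 1 gene of classes C and D was called higher, 3 of chlorophyll synthesis were lower and 0 of Rubisco and light harvesting. The named probe sets that remained, 217 in number, all kept their call or lack of one. Their differences were the same by construction, so this setting does not test them for shared probes.

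The 5 SEPALLATA-type (class E) genes, cofactors of the other classes, did not move together: 3 rose and 1 fell. MADS7 read 13.34, 13.58 and 13.38 in the flower and 5.16, 5.86 and 5.60 in the branch (7.90 ± 0.87, adjusted p = 1.55e-07; 7.47 on log2(signal + 16)). MADS8 differed by 6.83 ± 1.03, and MADS1, which acts in lemma and palea, by 3.86 ± 0.60. MADS34, known for its role in panicle branching and sterile lemmas, had the opposite pattern, with 8.32, 8.59 and 8.10 in the flower against 11.47, 11.37 and 11.39 in the branch (-3.07 ± 0.49, adjusted p = 2.33e-05). MADS5 read 10.92, 11.00 and 11.07 in the flower and 9.64, 9.37 and 9.83 in the branch. Those arrays did not overlap, but the difference was not called (1.38 ± 1.19, adjusted p = 0.378), with the spread estimated over all 11 groups. It was called on log2(signal + 16) (1.37, adjusted p = 0.0154) and with the 6 arrays fitted alone (adjusted p = 0.00305). Both AGL6-type genes rose, MADS17 by 7.14 ± 0.98 and MADS6 by 6.03 ± 1.09; both act in flower meristem and organ identity.

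AP1-type (class A) genes, which promote the change to flowering and mark inflorescence meristems, were bright in both organs. Of 3 tested 2 fell. MADS14 read 11.92, 11.90 and 11.91 in the flower and 13.68, 13.95 and 13.74 in the branch (-1.88 ± 0.21, adjusted p = 1.65e-07). It was lower at 4 of 4 probe sets, and its flower mean was the lowest of the 11 groups. MADS18 differed by -1.18 ± 0.25. MADS15 was not called at its brightest probe set (-0.89 ± 0.38, adjusted p = 0.0624), although 3 of its 4 probe sets were lower, and it was called with array medians set equal (-1.21, adjusted p = 0.0204) and without normalization (-1.02, adjusted p = 0.0388). Of the SVP and SOC1 types, which act in flowering time and meristem identity, 2 of 5 rose and 3 fell, but 0 rose without flower replicate 3 or with the 6 arrays alone, and 1 rose without flower replicate 1 or 2 or branch replicate 2 or 3. MADS50 (-2.65 ± 0.71) and MADS55 (-2.41 ± 0.26) were among the falls, and MADS50 had its highest mean of all groups in the branch.

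YABBY genes act in the growth of lateral organs, and all 6 tested of 7 matched were higher in the flower, with a median of 3.82. YABBY5 read 10.39, 10.94 and 9.94 in the flower and 2.20, 3.03 and 6.06 in the branch (6.66 ± 1.09, adjusted p = 2.86e-05; 5.33 on log2(signal + 16)). DL, which specifies the carpel, read 10.36, 10.37 and 10.45 against 6.57, 5.72 and 6.86 in the branch (4.01 ± 0.43, adjusted p = 1.19e-07), with the flower arrays close together. YAB1 differed by 4.40 ± 0.32, YAB6 by 3.63 ± 0.37 and YAB2 by 3.38 ± 0.61. YABBY4 (2.78 ± 0.86) lost its call without panicle branch replicate 1 (2.15, adjusted p = 0.0731) or replicate 3 (2.42, adjusted p = 0.0511), and with the 6 arrays fitted alone (adjusted p = 0.0554).

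**Figure D3:**
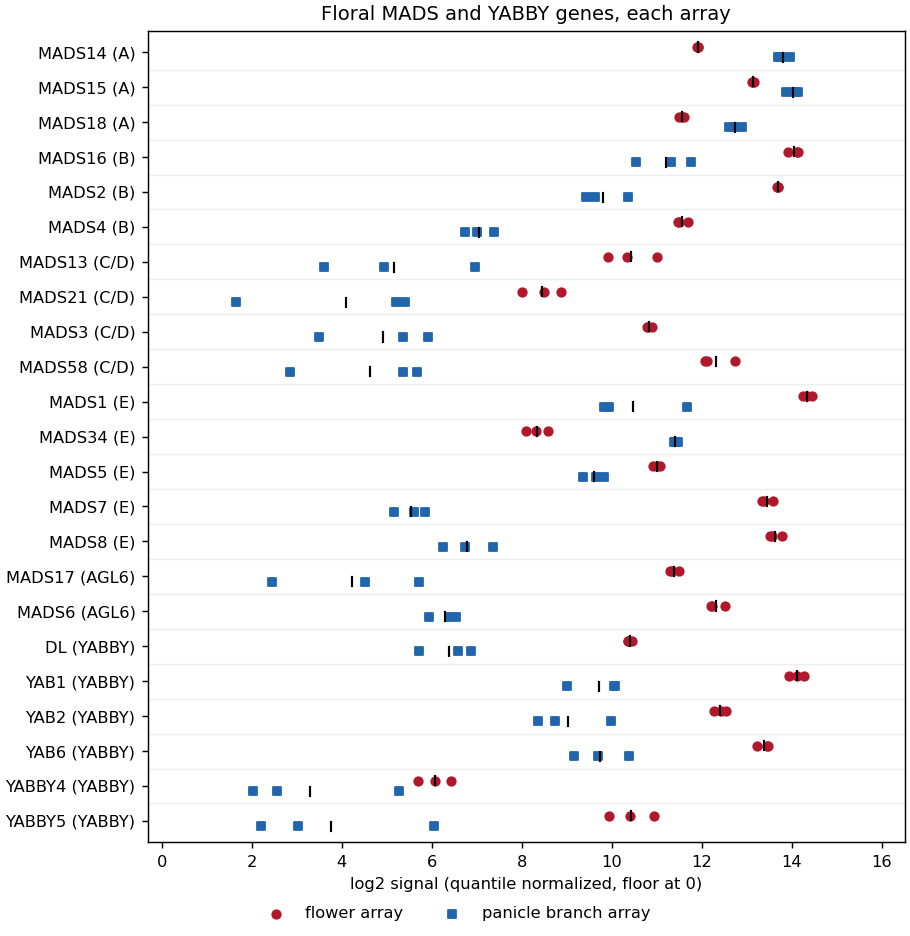
Log2 signal of floral MADS genes (class in brackets) and YABBY genes on each array: red circles are the 3 flower arrays, blue squares the 3 panicle branch arrays and black ticks the means. Flower arrays lie to the right for classes B, C and D, AGL6 and YABBY; the class A genes and MADS34 lie to the left.

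Regulators of branching and of the shoot meristem included single rises and falls. Of 5 panicle branching genes matched 4 were tested, and FON1, a receptor kinase that limits floral meristem size, was lower in the flower: 9.85, 10.56 and 10.40 against 12.73, 11.72 and 12.68 in the branch (-2.10 ± 0.25, adjusted p = 4.98e-07). LAX1, needed for axillary meristems, differed by -0.49 ± 0.61 (adjusted p = 0.566), SPL14, which promotes branching, by -0.06 ± 0.72 (adjusted p = 0.958) and APO2 by -0.75 ± 0.49 (adjusted p = 0.233). Among 13 SPL genes, transcription factors of plant phase change and panicle form, 1 rose and 1 fell, and 2 fell without panicle branch replicate 1 or 3 or with array medians set equal. SPL18 read 11.07, 10.78 and 10.61 in the flower and 5.43, 6.23 and 4.82 in the branch, 5.33 ± 1.11 apart. KNOX genes, of the homeobox family of the shoot meristem, had 1 rise and 3 falls among 9 tested. The rise, OSH43, lost its call without any 1 array other than panicle branch replicate 3, where the adjusted p reached 0.107 without branch replicate 1. The falls were HOS13 (-2.68 ± 0.61), OSH45 (-2.40 ± 0.19) and HOS59 (-1.14 ± 0.20). OSH1, the meristem marker of this family, read 11.52, 11.68 and 11.68 in the flower and 13.40, 13.05 and 13.70 in the branch, and was not called (-1.76 ± 1.29, adjusted p = 0.296), though it was with the 6 arrays alone (adjusted p = 0.00253).

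Single genes of the actin cytoskeleton, on which pollen tube growth depends, were among the largest rises. Of 9 actin depolymerizing factors, which cut and recycle actin filaments, 5 rose and 1 fell, with a median of 1.49. ADF1 read 14.28, 14.26 and 14.23 in the flower and 6.35, 5.54 and 5.04 in the branch (8.61 ± 1.31, adjusted p = 1.22e-05; 8.20 on log2(signal + 16)). ADF9 read 14.12, 13.87 and 14.01 against 6.03, 4.11 and 4.92. ADF11 had the opposite pattern (-1.49 ± 0.23) and was lower in the flower than in any of the other 10 groups. ADF10 (1.55) was called, but not without flower replicate 3 (1.34, adjusted p = 0.0867), branch replicate 1 (1.51, adjusted p = 0.0536) or branch replicate 2 (1.44, adjusted p = 0.0665), nor with array medians set equal (1.33, adjusted p = 0.0501). Actin genes also moved both ways: ACT1 was higher by 2.71 ± 0.30 and ACT7 lower by -1.15 ± 0.18.

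Single calcium signalling genes were far brighter in the flower. Of 44 calcium-dependent kinases and CIPK kinases tested, 12 rose and 6 fell, the falls near the background of 15.9%, while their median was -0.38. CPK2 read 13.82, 13.90 and 13.43 in the flower and 6.14, 6.03 and 6.46 in the branch (7.51 ± 1.48, adjusted p = 0.000244). CPK22 read 13.94, 13.89 and 13.65 against 6.75, 6.78 and 6.23 in the branch (7.24 ± 1.24, adjusted p = 4.89e-05), and CPK6 11.58, 11.09 and 11.71 against 3.63, 4.67 and 1.59 (8.16 ± 1.15, adjusted p = 4.24e-06; 6.65 on log2(signal + 16)). In these and in CPK21 (7.11), CIPK20 (6.71), CPK29 (6.56) and CIPK30 (6.29), the flower had the highest mean of the 11 groups. CIPK5, at 4.78 ± 0.56, was also bright in leaves, reaching 12.47 in the middle of the flag blade. The falls were smaller and led by CIPK10, with 8.42, 8.35 and 8.51 in the flower and 11.57, 11.72 and 11.42 in the branch (-3.14 ± 0.22, adjusted p = 1.2e-10), lower at 4 of 4 probe sets. Of 32 calcineurin B-like and calmodulin-like sensors tested, 10 rose and 1 fell, where 12.7% of all probe sets were higher and 15.9% lower. CML28 (8.81) and CML32 (7.94 ± 0.97) rose most, and CML29 fell by 3.10 (SE 0.32).

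Sugar transporters and invertases included both rises and falls. Among 4 sucrose transporters, SUT5 read 9.21, 9.63 and 9.12 in the flower and 3.12, 2.98 and 2.60 in the branch (6.42 ± 0.74, adjusted p = 2.83e-07; 4.80 on log2(signal + 16)). SUT1, which loads sucrose into the phloem, was lower in the flower by -1.56 ± 0.36 (adjusted p = 0.00104), but not called when the 6 arrays were fitted alone (adjusted p = 0.0768). Of 11 SWEET sugar transporters tested, 5 rose and 4 fell. SWEET5 read 14.13, 14.26 and 13.71 in the flower and 8.61, 8.08 and 7.63 in the branch (5.93 ± 0.88, adjusted p = 8.75e-06), and SWEET11 12.27, 12.29 and 12.49 against 6.84, 7.49 and 8.59 (4.72 ± 0.96, adjusted p = 0.000327). Without panicle branch replicate 2 the count of rises was 3, since SWEET4 (0.94, adjusted p = 0.0176, under 2-fold) and SWEET15 (3.43, adjusted p = 0.0578) were then not called. SWEET2B (-2.87 ± 0.37) and SWEET1B fell.

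The cell wall invertase CIN2, which splits sucrose outside the cell, read 9.63, 9.98 and 9.88 in the flower and 2.13, 2.31 and 6.30 in the branch (6.25 ± 1.38, adjusted p = 0.000745; 4.75 on log2(signal + 16)). Its relatives CIN4 (-2.19 ± 0.25) and CIN1 (-1.43 ± 0.28) were lower in the flower, so the 7 invertases had 1 rise and 2 falls. Sucrose synthase SUS3 rose by 6.49 ± 0.80, the 1 rise among 6 sucrose synthases (2 with the 6 arrays alone). The 1 fall, SUS5 (-1.62 ± 0.63), lost its call without flower replicate 3 (-0.89, adjusted p = 0.291), without any 1 branch array (adjusted p = 0.0512 to 0.115) and with the 6 arrays alone (adjusted p = 0.107). For monosaccharides, the transporter MST3 fell by 2.47 (SE 0.42) where MST5 rose. Of 5 starch synthesis genes 1 rose and 3 fell. GBSS1, the granule-bound starch synthase of amylose, read 11.25, 9.52 and 12.34 in the flower and 7.32, 8.17 and 6.69 in the branch (3.65 ± 0.55, adjusted p = 1.09e-05), with 4 of 5 tested probe sets higher and 1 lower. SS2 was lower by -1.66 ± 0.20 at the brightest of its 3 probe sets.

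Expansins loosen the cell wall, and their members called higher in the flower can be read against 12.7% of all probe sets. Of 11 alpha expansins tested of 14 matched, 8 rose and 0 fell, with a median of 4.30. EXPA32 read 13.92, 13.69 and 13.70 in the flower and 7.43, 6.14 and 3.53 in the branch (8.07 ± 1.32, adjusted p = 2.84e-05; 7.51 on log2(signal + 16)), with no other organ mean above 6.28. EXPA1 differed by 7.49 ± 1.22, but node I reached 12.20, close to the flower mean of 12.50. Of 10 beta expansins tested of 11 matched, 7 rose and 1 fell, with a median of 3.03. EXPB9 read 15.36, 15.34 and 15.27 in the flower and 10.47, 10.16 and 10.16 in the branch (5.06 ± 1.36, adjusted p = 0.00416), and EXPB4 and EXPB8 differed by 5.64 ± 0.92 and 5.47 ± 0.75. EXPB3 (1.85) and EXPB11 (2.00) lost their calls when any of several arrays was left out, with adjusted p up to 0.193 for EXPB3 without branch replicate 2 and up to 0.159 for EXPB11 without branch replicate 1.

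Of 4 secondary wall cellulose genes 3 rose. The secondary wall genes CESA4 (3.86 ± 0.68), CESA7 (2.58 ± 0.75) and CESA9 (2.58 ± 0.80) were higher in the flower. CESA4 read 11.40, 11.36 and 11.87 in the flower and 6.65, 8.61 and 7.77 in the branch, and both organs lay below the base of internode I (14.59). The associated BC1, a COBRA-like protein, was higher on every flower array (10.41, 10.25 and 10.11 against 8.35, 9.04 and 8.40), but its adjusted p lay just above the threshold and it was not called (1.66 ± 0.67); it was called with the 6 arrays alone (adjusted p = 0.00449) and on log2(signal + 16) (adjusted p = 0.00309). Of 6 primary wall genes 4 rose, CESA5 (2.73 ± 0.67), CESA6 (2.24 ± 0.50), CESA8 (1.84 ± 0.30) and CESA1 (1.71 ± 0.35). Cellulose synthase-like genes, which make other wall glucans, had 7 rises and 3 falls among 18 tested. CSLF2, of mixed-linkage glucan synthesis, read 10.21, 10.36 and 10.73 in the flower and 1.71, 3.48 and 2.17 in the branch (7.98 ± 0.90, adjusted p = 2.14e-07; 5.99 on log2(signal + 16)). CSLD5 (7.31 ± 0.73) and CSLC9 (6.31 ± 0.73) rose too, while CSLH1 (-1.82 ± 0.26) and CSLE1 (-1.97 ± 0.27) fell. IRX9, of xylan backbone synthesis, rose by 4.42 ± 0.60. It was 1 of 2 rises among 11 xylan genes, a count that was 4 without flower replicate 1.

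Laccases polymerize lignin. The laccase LAC7 read 7.94, 7.94 and 7.23 in the flower and 13.33, 12.41 and 12.77 in the branch (-5.13 ± 0.59, adjusted p = 2.78e-07), and LAC4 6.22, 6.59 and 6.64 against 1.61, 2.86 and 1.87 (4.37 ± 1.01, adjusted p = 0.00114; 2.36 on log2(signal + 16)). The lignin synthesis list of 18 genes gave 4 rises and 3 falls, but 1 to 3 rises and 1 to 3 falls when an array was left out, the fewest rises (1) without any of flower replicates 1 and 3 and branch replicates 1 and 2, and the fewest falls (1) without flower replicate 3. In it CAD8C fell by 3.64 (SE 0.21), and 4CL3 rose by 1.34 ± 0.27. Of 21 CASP-like membrane proteins tested, a family named for the Casparian strip, 2 rose and 8 fell, against 15.9% of all probe sets; 6 fell with the hybridization controls set equal, and 1 rose without flower replicate 2 or branch replicate 2. CASPL2D1 read 10.46, 10.57 and 11.03 in the flower and 13.16, 13.56 and 12.95 in the branch (-2.54 ± 0.23, adjusted p = 1.21e-08), and CASPL1E1 differed by -2.45 ± 0.35.

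Most beta tubulins, subunits of microtubules, were higher in the flower. Of 8 beta tubulins 6 rose and 0 fell, with a median of 1.89; 5 rose with array medians set equal. TUBB8 read 13.49, 13.40 and 13.44 in the flower and 8.13, 7.66 and 7.76 in the branch (5.59 ± 0.53, adjusted p = 1.48e-08), and TUBB4 12.41, 12.65 and 12.69 against 8.71, 9.39 and 8.86 (3.59 ± 0.42, adjusted p = 3.43e-07). The internode base was higher than the flower for both (14.52 and 14.65). The alpha tubulins TubA (1.45 ± 0.18) and TUBA1 (1.49) also rose. Kinesins, motors that move along microtubules, had 12 rises and 2 falls among 34 tested (1 fall without flower replicate 1 or 3 or branch replicate 1). The rises were led by KIN14B (4.01 ± 0.95; 1.94 on log2(signal + 16)) and KIN7J (3.88 ± 0.29). KIN7J read 12.11, 11.99 and 11.53 in the flower, 8.09, 7.96 and 7.94 in the branch, and no more than 8.87 as a mean in the 9 other groups.

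Genes of cell division were tested as separate lists. Of 8 mitotic cyclins and B-type kinases 3 rose, with a median of 2.33, and 5 rose on log2(signal + 16), without normalization or with the hybridization controls set equal. CDKB2-1 read 8.40, 8.58 and 8.94 in the flower and 6.00, 5.18 and 6.04 in the branch (2.90 ± 0.58, adjusted p = 0.000258). CYCB1-1 (2.25 ± 0.75, adjusted p = 0.018) lost its call without flower replicate 3 (1.98, adjusted p = 0.071), branch replicate 2 (2.06, adjusted p = 0.0626) or branch replicate 3 (1.86, adjusted p = 0.083), and CYCA2-1 (2.78) lost it with the 6 arrays alone (adjusted p = 0.062). DNA replication genes had 5 rises and 2 falls among 28 tested, a share of rises near the background, with 3 rises without flower replicate 3 or branch replicate 2 and 1 to 4 falls when an array was left out. RPA32C, of the replication protein A family that binds single-stranded DNA, differed by 2.89 ± 0.43. Without normalization, with the hybridization controls set equal or with the 6 arrays alone, 9 were higher. Of 29 other cyclins and kinases 5 rose and 3 fell, against 12.7% and 15.9% of all probe sets, and 2 rose without branch replicate 2. Among them CDKF-4, a cyclin-dependent kinase, rose by 2.87 ± 0.22, and CYCD5-1, a D-type cyclin, fell by 3.30 (SE 0.44).

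Most genes tested of photosystems and of chlorophyll synthesis were lower in the flower. Of 7 genes of photosystems and electron transport 6 fell and 0 rose, with a median of -1.57 against -0.18 over all probe sets. PSAH, a subunit of photosystem I, read 13.20, 13.13 and 13.17 in the flower and 14.76, 14.79 and 14.75 in the branch (-1.60 ± 0.26, adjusted p = 2.09e-05). The ferredoxin reductase LFNR1 (-1.85 ± 0.23), petC of the cytochrome complex (-1.57 ± 0.21), PSAG (-1.44 ± 0.22) and PSB28 (-1.23 ± 0.23) fell, and ndhM, of the chloroplast NDH complex, fell by more (-2.61 ± 0.25). Of 9 chlorophyll synthesis genes 7 fell and 0 rose, with a median of -1.67. The transcription factor GLK1, which activates chloroplast genes, read 10.38, 10.17 and 10.07 in the flower and 12.68, 13.54 and 12.61 in the branch (-2.73 ± 0.28, adjusted p = 5.55e-08). Its relative GLK2 differed by -2.03 ± 0.18 and was lower at 4 of 4 probe sets, with its lowest mean of the 11 groups in the flower. The enzymes PORA (-1.85 ± 0.33), PORB (-1.68 ± 0.20), CHLH (-1.67 ± 0.22) and CHLD (-1.25 ± 0.16) fell as well; CHLH was split, with 1 of 2 probe sets higher and 1 lower. HEMB (-1.02) was under the 2-fold limit without flower replicate 2 (-0.96) or branch replicate 1.

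Rubisco and light-harvesting genes stayed bright in both organs. RBCS, the small subunit of Rubisco, read 13.45, 13.21 and 13.13 in the flower and 14.90, 15.01 and 15.14 in the branch (-1.75 ± 0.21, adjusted p = 3.47e-07). The chlorophyll a/b binding gene CAB2R differed by only -0.13 (adjusted p = 0.541) and RCABP89 by -0.61, under 2-fold (-1.17 with array medians set equal, adjusted p = 4.97e-05). In this list 2 of 5 tested genes fell, and 4 with array medians set equal. The panicle branch had the highest mean of all 11 groups, flag leaf blades included, for RBCS, PSAH, GLK1, CHLH, CHLD, PORA and PORB. These leads were not tested and some were small. RBCS averaged 15.02 in the branch and 14.94 at the top of internode I, and PORB 13.36 against 13.22 at the flag blade base. The green tissue marker RCAA1 was higher at the flag blade tip (15.52) than in the branch (15.21). RCABP89 was higher at the top of internode I (15.10 against 15.06). NOL, of chlorophyll b breakdown, fell with them (-1.98 ± 0.13).

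Of 16 genes of ammonium and nitrate transport and assimilation 2 rose, 7 fell and 7 were not called, with a median of -0.97. The background was 12.7% higher and 15.9% lower. In this list 6 fell with the hybridization controls set equal and 9 with array medians set equal. GLN2, the chloroplast glutamine synthetase, read 12.29, 12.06 and 12.01 in the flower and 14.46, 14.55 and 14.51 in the branch (-2.39 ± 0.20, adjusted p = 2.64e-09). Its cytosolic relative GLN1-3 read 9.26, 9.41 and 9.53 in the flower and 6.62, 6.07 and 7.34 in the branch, higher in the flower by 2.73 ± 0.72 (adjusted p = 0.00376). GLT2, a glutamate synthase (-3.48 ± 0.62), the nitrate transporter NRT2.3 (-3.02 ± 0.67), nitrate reductase NIA1 (-2.43 ± 0.60) and the ammonium transporter AMT2-1 (-1.80 ± 0.28) were lower.

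**Figure D4:**
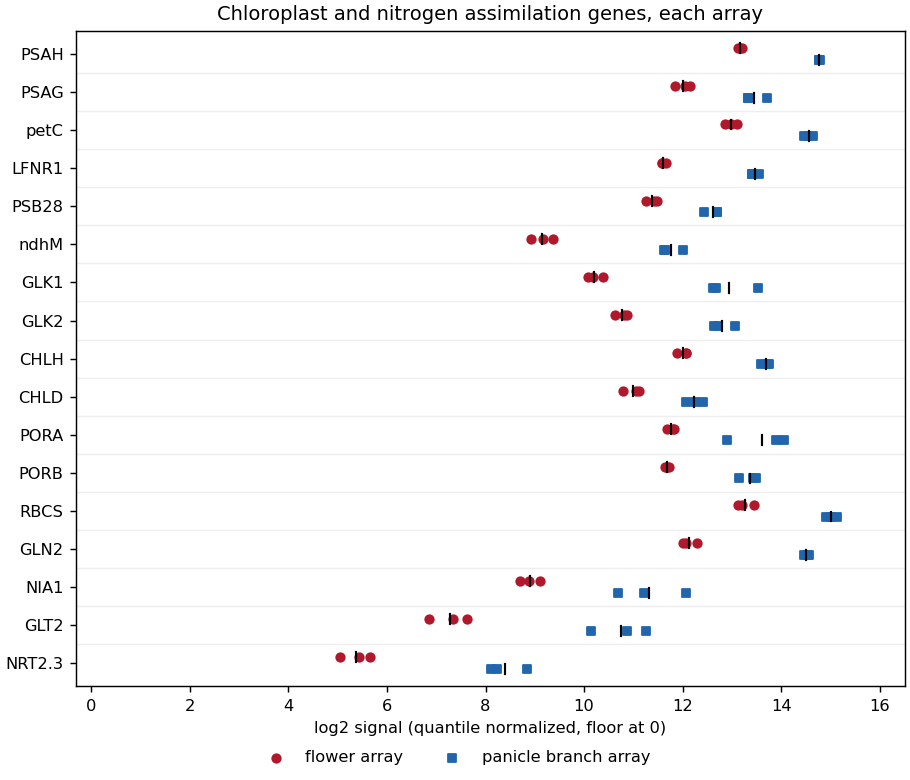
Log2 signal of genes of photosystems, chlorophyll synthesis, Rubisco and nitrogen transport and assimilation on each array. Red circles are the 3 flower arrays, blue squares the 3 panicle branch arrays and black ticks the means. The genes drawn were chosen among those called lower in the flower, so all lie to the left; GLN1-3 (2.73), which rose, and CAB2R (-0.13), which overlapped, are not drawn.

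Mineral and water transporter families included rises and falls. Of 14 YSL genes, a family that moves metals bound to nicotianamine-type chelators, 6 rose and 2 fell, the falls near the background of 15.9%. YSL7 read 14.52, 14.62 and 14.14 in the flower and 8.41, 7.92 and 7.85 in the branch (6.37 ± 1.08, adjusted p = 4.25e-05), and YSL18 (6.43 ± 0.94) and YSL1 (5.41 ± 0.55) rose with YSL4. YSL13 read 4.91, 1.42 and 2.33 in the flower and 8.65, 9.71 and 9.02 in the branch (-6.24 ± 0.59, adjusted p = 1.44e-08; -4.46 on log2(signal + 16)), and its highest mean was at the base of the flag blade (12.63). Among 10 ZIP transporters of zinc and iron 1 rose, near the background of 12.7%, and 3 fell. ZIP3 rose (3.66 ± 0.49), with 10.37, 10.81 and 9.99 in the flower, 6.62, 5.57 and 8.01 in the branch and a higher mean in node I (13.38). ZIP4 (-2.11 ± 0.42) and ZIP1 (-1.74 ± 0.24) fell. NRAMP5, a manganese transporter, was higher by 4.78 ± 0.70, with 11.08, 11.18 and 10.39 in the flower and 6.17, 6.98 and 5.16 in the branch. The metallothioneins MT1A (-2.48 ± 0.30) and MT1B (-3.03 ± 0.59) fell, and MT4C rose (4.01 ± 0.94).

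Potassium and sodium transport genes had 8 rises and 5 falls among 29 tested, the falls near the background of 15.9%. HAK20 read 10.86, 10.76 and 10.00 in the flower and 2.35, 2.22 and 2.02 in the branch (8.34 ± 0.72, adjusted p = 3.77e-09; 6.19 on log2(signal + 16)), and no other organ group had a mean above 2.46. HAK4 read 8.25, 7.81 and 8.43 in the flower and 13.45, 12.66 and 13.84 in the branch (-5.16 ± 0.99, adjusted p = 0.000175). HKT1;5, which takes sodium out of the xylem sap, read 5.42, 2.96 and 2.26 in the flower and 8.96, 9.05 and 9.61 in the branch (-5.66 ± 0.56; -4.31 on log2(signal + 16)). The potassium channel AKT1 fell by 2.21 (SE 0.25). Among aquaporins PIP2-7 stood apart, with 6.54, 6.71 and 7.95 in the flower and 14.00, 13.99 and 14.15 in the branch (-6.98 ± 0.45, adjusted p = 3.87e-11), while PIP1-1 differed by 0.20 ± 0.14 (adjusted p = 0.267). Of 14 tonoplast and other intrinsic proteins tested 5 rose and 1 fell (2 without flower replicate 1 or 2). The rises included TIP2-1 (5.20 ± 0.74), NIP1-1 (4.80 ± 0.87) and SIP2-1 (2.89 ± 0.20).

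Gibberellin genes moved in both directions. KAO, the ent-kaurenoic acid oxidase, read 12.88, 12.25 and 13.52 in the flower and 7.00, 5.79 and 7.65 in the branch (6.07 ± 0.38, adjusted p = 2.95e-11). The earlier enzymes CPS1 (3.11 ± 0.43) and D35, an ent-kaurene oxidase (2.23 ± 0.26), rose, and each of these 3 genes had its highest mean of all groups in the flower. GA20OX2, the later enzyme known from semi-dwarf rice, read 6.88, 7.13 and 7.38 in the flower and 10.68, 9.19 and 10.24 in the branch (-2.91 ± 0.43, adjusted p = 8.83e-06), its lowest mean of all groups in the flower. In the list of 12 tested genes 5 rose and 3 fell; leaving out panicle branch replicate 1 gave 3 rises, since CPS4 (2.97, adjusted p = 0.0512) and GA20OX3 (0.97, adjusted p = 0.023, under 2-fold) were then not called.

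For auxin, of 9 GH3 enzymes, which conjugate auxin or jasmonate to amino acids, 5 rose and 0 fell, with a median of 1.76. GH3-8 read 12.64, 12.20 and 12.48 in the flower and 8.00, 6.12 and 6.89 in the branch (5.43 ± 0.71, adjusted p = 1.49e-06), and GH3.4 differed by 3.43 ± 0.86. Of 17 auxin response factors 2 rose, near the background of 12.7%, and 5 fell, with a median of -0.45. In this list 4 fell with the hybridization controls set equal and 7 with array medians set equal. ARF3 read 9.33, 9.60 and 9.70 in the flower and 13.39, 13.07 and 13.05 in the branch (-3.63 ± 0.26, adjusted p = 2.45e-10). For ARF3 the flower had the lowest and the branch the highest mean of the 11 groups. ARF15 (-2.32 ± 0.16) and ARF9 (-1.91 ± 0.16) fell too. Aux/IAA repressors had 3 rises, near the background of 12.7%, and 7 falls among 24 tested. Among these were IAA25 (-1.92 ± 0.24), IAA2 (-1.75 ± 0.31), IAA18 (1.93 ± 0.46) and IAA30 (1.80 ± 0.47).

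Cytokinin genes had 2 rises, near the background of 12.7%, and 4 falls among 12 tested, where 15.9% of all probe sets fell. CKX4, which degrades cytokinin, read 6.37, 5.74 and 5.67 in the flower and 11.17, 11.21 and 11.33 in the branch (-5.31 ± 0.67, adjusted p = 9.83e-07), and the branch mean was the highest of all groups. LOG, which releases active cytokinin, fell by 2.57 (SE 0.30) at the brighter of its 2 probe sets, and its relatives LOGL1 (3.02 ± 0.45) and LOGL7 (2.23 ± 0.26) rose. The response regulator RR41 rose by 6.68 ± 0.92 (3.60 on log2(signal + 16)), and RR1 fell by 1.85 (SE 0.49). BU1, a helix-loop-helix protein of brassinosteroid response, read 10.27, 10.52 and 10.07 in the flower and 1.82, 3.83 and 2.09 in the branch (7.71 ± 1.45, adjusted p = 0.000142; 5.79 on log2(signal + 16)). The ethylene receptor gene ETR3 read 7.46, 7.25 and 7.60 in the flower and 11.04, 11.20 and 11.10 in the branch (-3.68 ± 0.21, adjusted p = 5.13e-12), with all 9 other organ means at or above 10.42.

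Across gene lists of 8 or more tested members, beta tubulins and alpha expansins had the largest net shares of members higher in the flower, and chlorophyll synthesis and nitrogen genes the largest net shares lower. Several families had shares near or below the background of 12.7% higher and 15.9% lower. Of 23 ribosomal protein genes 1 rose and 3 fell, with a median of -0.02, and the rise was lost without flower replicate 3 or branch replicate 2 and with array medians set equal. Among 32 genes of jasmonate synthesis and TIFY repressors 4 rose and 4 fell, but 2 rose without flower replicate 2, and 2 fell without any of flower replicates 1 and 3 and branch replicates 2 and 3. Heat shock factors and small heat shock proteins gave 3 rises and 4 falls among 41, with 5 rises without branch replicate 3 and 2 falls without flower replicate 3.

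**Figure D5:**
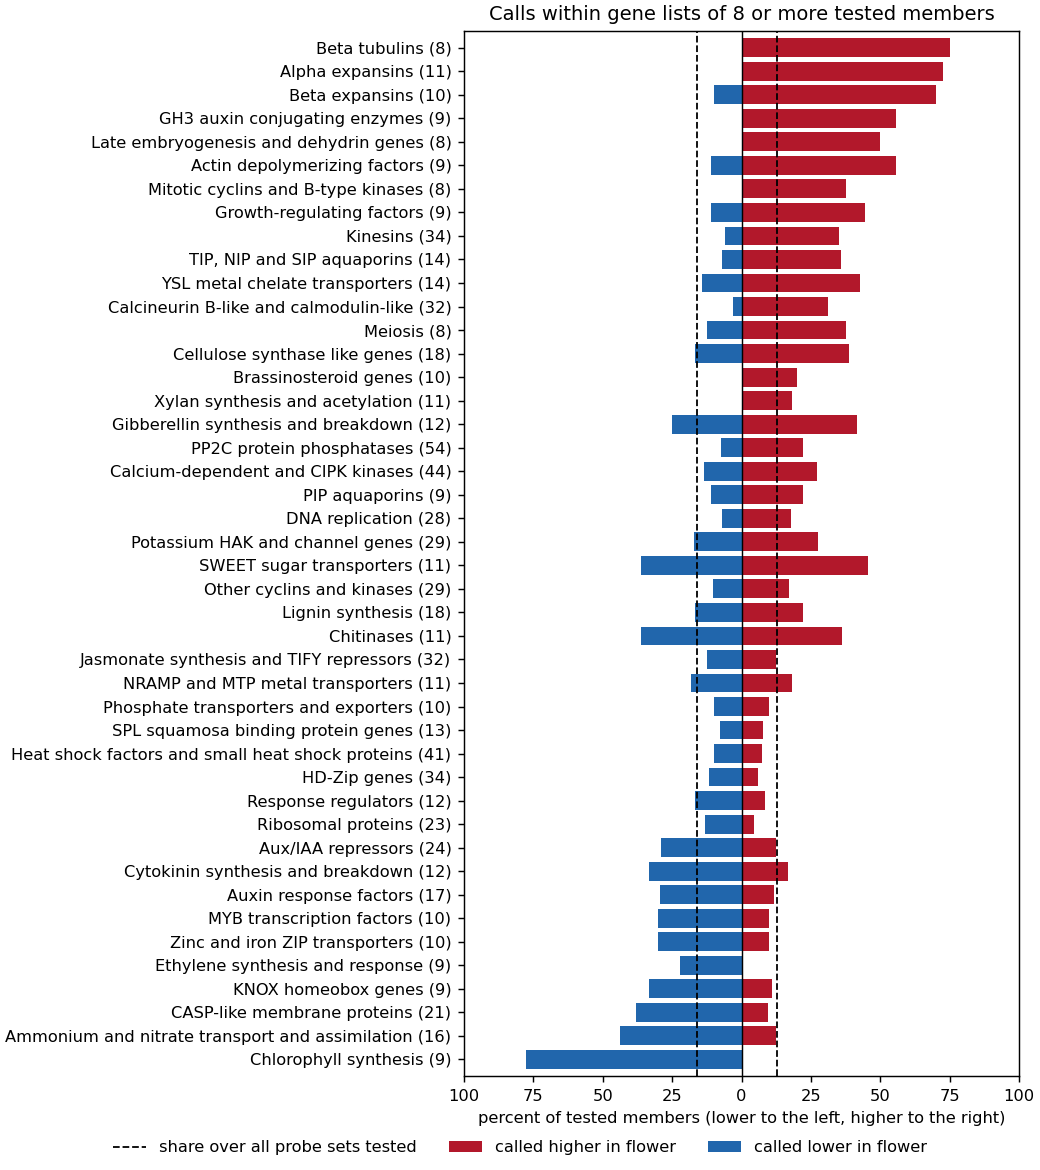
Percent of tested members called higher (red, to the right) or lower (blue, to the left) in the flower for gene lists with 8 or more tested members, whose number stands in brackets. Dashed lines mark the shares over all probe sets tested, 12.7% higher and 15.9% lower; the lists are ordered by the share higher minus the share lower.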

How the data were processed

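Total RNA of each organ was labelled as biotinylated cRNA and read on 1-colour arrays, per the labels' protocols. The deposited values are 1 signal intensity per probe set and array on a linear scale, from 0.0536 to 66643, and each array has a trimmed mean of 500.06 to 500.08, read from the values. Which software summarised and scaled the signals: not given in the sources used here. Array medians spanned 5.39 to 6.36 on the log2 scale, a gap above 0.5. Intensities were therefore quantile normalized over the 35 arrays and then floored at 1. Of 57381 probe sets, 187 controls were left out, and a probe set was tested where 3 or more of the 32 arrays with replicates reached 5.83, the overall median (38591 probe sets). R 4.3.3 and limma 3.58.1 fitted a mean for each of 11 groups (21 residual degrees of freedom), and p-values were Benjamini-Hochberg adjusted over all probe sets tested.

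Of the probe sets tested, 20907 had 1 gene in the platform annotation, 85 several and 17599 none listed, and symbols were updated through RefSeq gene identifiers. The lists held 993 matched genes, 930 of them tested, and 36 names without a match. Named were the 12 largest rises and falls with a gene name and a mean of at least 8.88 in the higher organ. This limit is the 75th percentile of all values. Also named were up to 4 called members of each list by size, the markers, and members a list's description needed. A gene with several probe sets was read at the brightest. Among the 12 largest rises and falls it was read at the probe set that showed the change. Of these ALDP has 3 probe sets, and VLN4 and BURP2 have 2 each. The comparison, members and lists were chosen with earlier results of these data known. Deviations of same-numbered flower and branch arrays correlated at -0.021, -0.037 and -0.011, so the numbers were not taken to pair samples. Alternatives covered scaling, low signals, filters, samples in the fit, the spread model, the call rule, the replicate block and each array left out.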

Additional observations from a re-analysis of the deposited data

How the results depend on the processing

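With one array left out at a time, 4390 to 4785 probe sets were higher and 5641 to 6055 lower in the flower. The stricter filter on dim probe sets left 20586 to test, with 3221 higher and 4309 lower, and dropping the 2-fold limit gave 6670 higher and 9879 lower; fewer probe sets tested and a wider rule account for these by construction. The other planned settings without a replicate block gave 3835 to 5120 higher and 4468 to 6468 lower. Fits of the 6 arrays alone with their own filter (4720 and 5517) or an intensity trend and robust prior (4999 and 5861) were chosen after seeing the data. Replicate numbers were not taken to pair the samples, and the labels do not say whether they do. With the replicate block there were 4895 higher and 6138 lower over 32 arrays, and 4185 and 5002 with the 6 arrays alone. Of 274 named probe sets 259 were called, 197 kept the call under every alternative that tested them, and 0 called ones turned sign. Differences could change only with the scaling, the low-signal scale or an array left out, so the other settings could not turn a sign. A probe set that an alternative left out did not count as a lost call. The stricter filter tested 235 of the 274, and the setting without identifiers ending in _x_at, _s_at or _a_at tested 217. Of uncalled genes, SPL14 (-0.06) turned to 0.10 without normalization and 0.15 with the hybridization controls set equal, with -0.41 to 0.28 over arrays left out. LAC23 (-0.25) turned to 0.019 with those controls set equal, with -0.48 to 0.076 over arrays left out. The cause was not tested. Signals below the median of all values limit the size of large differences, and 3 arrays per organ limit the precision.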

Other observations

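Other protein families also held genes that set the organs apart. Of 54 PP2C protein phosphatases tested, a family with members in abscisic acid signalling, 12 rose and 4 fell in the flower. Over all probe sets 12.7% were higher and 15.9% lower, and the median of the list was 0.18. PP2C73 lost its call without flower replicate 1 or 2 or branch replicate 1 or 3 (limma adjusted p = 0.0571 to 0.0972). PP2C51 lost it without flower replicate 1 or 2 or branch replicate 2 (adjusted p = 0.0564 to 0.242), and PP2C69 without branch replicate 3 (adjusted p = 0.0504). The fall of PP2C54 was under 2-fold without flower replicate 3 (-0.96). PP2C59 read 12.19, 11.99 and 12.14 in the flower and 6.62, 6.50 and 7.03 in the branch (5.39 ± 0.33, limma adjusted p = 2.5e-11), and PP2C13 13.07, 12.72 and 13.03 against 8.31, 8.10 and 8.00 (4.80 ± 0.40, adjusted p = 1.97e-09). Both had their highest mean of the 11 organ groups in the flower, and PP2C13 had its lowest in the branch. PP2C71 read 7.89, 7.85 and 7.95 in the flower and 10.45, 11.04 and 10.71 in the branch (-2.84 ± 0.21, adjusted p = 3.5e-10). Lipid transfer proteins, secreted proteins of surface tissues, were higher at 3 of 3 genes, among them LTP2-B (1.87 ± 0.32) and LTPL1 (1.85 ± 0.28). The other gene, LTP, was not called without branch replicate 1 (1.32, adjusted p = 0.0513). The chitinases Cht4 (-2.25 ± 0.61) and Cht11 (-2.58 ± 0.40) were lower in the flower, where Chia1d was higher.

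Among transcription factors, MYB2 read 11.03, 10.99 and 11.00 in the flower and 9.22, 6.67 and 6.28 in the branch (3.62 ± 0.67, limma adjusted p = 0.000115). Branch replicate 1 was the highest branch array, and the organs did not overlap. WRKY76 read 5.96, 4.47 and 5.33 in the flower and 10.20, 8.99 and 8.37 in the branch (-3.94 ± 0.75, adjusted p = 0.000159; -3.45 on log2(signal + 16)), with its lowest mean of the 11 groups in the flower. MYBS1 (-2.68 ± 0.22) and the homeobox gene HOX4 (-1.85 ± 0.24) were lower in the flower, and HOX4 had its highest mean in the branch. SPO11D, named for the SPO11 family of DNA topoisomerase-like proteins, was higher (2.71 ± 0.29) and SPO11C lower (-1.81 ± 0.21). LEA19, a late embryogenesis abundant protein, read 10.83, 11.44 and 10.54 in the flower and 5.90, 5.33 and 5.22 in the branch (5.45 ± 1.07, adjusted p = 0.00022; 5.02 on log2(signal + 16)).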
